A study of Homo sapiens with 6 samples.

Results

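The respiratory chain genes described here are the nuclear genes that encode subunits of the mitochondrial electron transport chain and ATP synthase. They were picked from the expression table by gene symbol: the NDUFA, NDUFB, NDUFC, NDUFS and NDUFV genes, the UQCR genes, the COX4I, COX5, COX6, COX7 and COX8 genes, the ATP5 genes, SDHA, SDHB, SDHC, SDHD, CYC1 and CYCS. Complex assembly factors named NDUFAF, pseudogenes and hyphenated symbols were left out. The rule gave 90 of 35793 listed genes, with 37 assigned to complex I, 4 to complex II, 10 to complex III, 19 to complex IV and 19 to complex V, beside CYCS. Of these, 85 averaged 10 or more normalized counts over the libraries and were tested. ATP5MGL, COX4I2, COX6B2, COX7B2 and NDUFA4L2 were under that level.

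RNA was sequenced from cardiomyocytes grown from WTC11, an established human induced pluripotent stem cell line, and harvested at day 15 of differentiation. The wild-type cells were unedited WTC11, and the STK25 knockout cells were a WTC11 line made homozygous for a CRISPR/Cas9 disruption of STK25, a serine/threonine kinase gene. No agent was applied to either genotype, and both were kept in RPMI medium with B27. Each genotype had 3 biological replicates, and the knockout was 1 line, so an effect of the edit and any other difference between the lines cannot be told apart. The series asks how RNA levels differ when STK25 is disrupted.

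Reads per library ran from 22443904 to 53224112. STK25 itself had 8874, 6774 and 8710 normalized counts in the wild type and 3906, 3434 and 3820 in the knockout (log2 fold change -1.12, SE 0.19, limma adjusted p = 0.00903), so its RNA was lower but present in all knockout libraries. Over all 15536 tested genes, 1982 (12.8%) had an adjusted p under 0.05. Cardiomyocyte markers were abundant in every library, the 9 listed genes summing to 1230260 to 1563980 normalized counts in the wild type and 1768840 to 3274050 in the knockout. MYL7 carried most of the difference between the sums, with means of 541523 and 1481020, while MYH6, PLN, TNNI1 and RYR2 had log2 fold changes below 0. All levels below are normalized counts, that is reads divided by 1 size factor per library, and all log2 fold changes are knockout over wild type on the log2(value + 1) scale.

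Complexes I to IV pass electrons from NADH and succinate to oxygen and, except for complex II, pump protons across the inner mitochondrial membrane. Complex V uses the proton gradient to make ATP. Cytochrome c, encoded by CYCS, carries electrons from complex III to complex IV and also takes part in apoptosis when released from mitochondria. Complexes I, III, IV and V also contain subunits encoded by mitochondrial DNA, so each needs output from both genomes, whereas complex II is nuclear-encoded throughout. The heart contracts continuously and is among the tissues richest in these complexes, and their nuclear genes are generally described as rising when cardiomyocytes mature.

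Promoters of 69 of the 90 genes were matched by symbol in the RefSeq promoter table (GRCh38.p14). The first 4 sequences below belong to the 2 genes that rose, UQCRC2 and CYCS, to ATP5F1C, the gene nearest to the threshold without passing it, and to NDUFB2, the complex I gene with the lowest log2 fold change. Each is the 250 bases before the RefSeq start, written 5′ to 3′ on the gene's strand, and capitals mark any of 5 motifs searched on both strands: the consensus of nuclear respiratory factor 1 (NRF1), which is GCGCA and GCGC with any 1 base between them, CCGGAAG (the ETS family, which includes GABPA), TCAAGGTCA (estrogen-related receptors), TGACGTCA (the cAMP response element) and AAGATGGCG (YY1). The NRF1 letters lie at the end of the ATP5F1C window and the cAMP response element in that of NDUFB2. The other 2 windows hold none of these letters, which says nothing about whether the factors bind there.
UQCRC2 (chr16:21953111-21953360, plus strand): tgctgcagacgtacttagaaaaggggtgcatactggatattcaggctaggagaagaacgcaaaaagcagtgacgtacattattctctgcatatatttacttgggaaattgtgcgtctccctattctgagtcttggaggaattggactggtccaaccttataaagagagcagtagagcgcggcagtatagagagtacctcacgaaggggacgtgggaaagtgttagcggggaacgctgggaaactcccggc
CYCS (chr7:25125261-25125510, minus strand): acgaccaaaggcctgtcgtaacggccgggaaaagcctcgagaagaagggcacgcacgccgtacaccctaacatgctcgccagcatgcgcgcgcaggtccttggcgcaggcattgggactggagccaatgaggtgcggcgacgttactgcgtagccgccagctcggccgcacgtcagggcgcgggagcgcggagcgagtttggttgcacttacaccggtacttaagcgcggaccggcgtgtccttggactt
ATP5F1C (chr10:7787927-7788176, plus strand): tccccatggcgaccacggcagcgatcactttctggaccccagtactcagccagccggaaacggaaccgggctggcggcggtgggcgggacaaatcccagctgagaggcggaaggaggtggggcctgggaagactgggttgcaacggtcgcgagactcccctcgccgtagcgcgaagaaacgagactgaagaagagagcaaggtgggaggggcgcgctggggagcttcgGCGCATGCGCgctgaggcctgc
NDUFB2 (chr7:140696458-140696707, plus strand): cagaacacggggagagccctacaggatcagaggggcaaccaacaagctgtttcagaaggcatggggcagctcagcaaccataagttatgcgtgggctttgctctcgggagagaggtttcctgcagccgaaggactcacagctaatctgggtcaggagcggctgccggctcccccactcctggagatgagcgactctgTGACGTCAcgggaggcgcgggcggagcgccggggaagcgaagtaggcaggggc

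Over the whole 300-base windows, which run to 50 bases past the start, the NRF1 letters were in 16 of 69 promoters (23.2%), against 6.05% of all 27305 promoters in the table. The palindromic form capitalized in ATP5F1C, which the looser consensus includes, was in 4 (5.80% against 1.31%): ATP5F1C, NDUFA8, NDUFB4 and SDHD. The ETS letters were in 19 (27.5% against 10.6%), YY1 letters in 9 (13.0% against 1.81%), the cAMP response element in 5 (7.25% against 1.94%) and the estrogen-related receptor letters in 1, SDHD (1.45% against 0.35%). The median log2 fold change was 0.62 for genes with and 0.62 for genes without the looser NRF1 letters. It was 0.65 with and 0.60 without the ETS letters, 0.61 with and 0.63 without those of YY1, and 0.57 with and 0.63 without the cAMP response element. The 4 genes with the palindromic NRF1 form had a median of 0.83, against 0.61 without it, and SDHD, the only match to the estrogen-related receptor letters, had -0.15, against 0.63. Among the 11582 promoters of tested genes, a closer background, the shares were higher for most motifs: 10.3% for the looser NRF1 letters, 2.07% for the palindromic form, 17.6% for ETS, 3.50% for YY1, 2.98% for the cAMP response element and 0.18% for the estrogen-related receptor letters. A match describes letters in a window and is not evidence of a bound site.

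**Figure D1:**
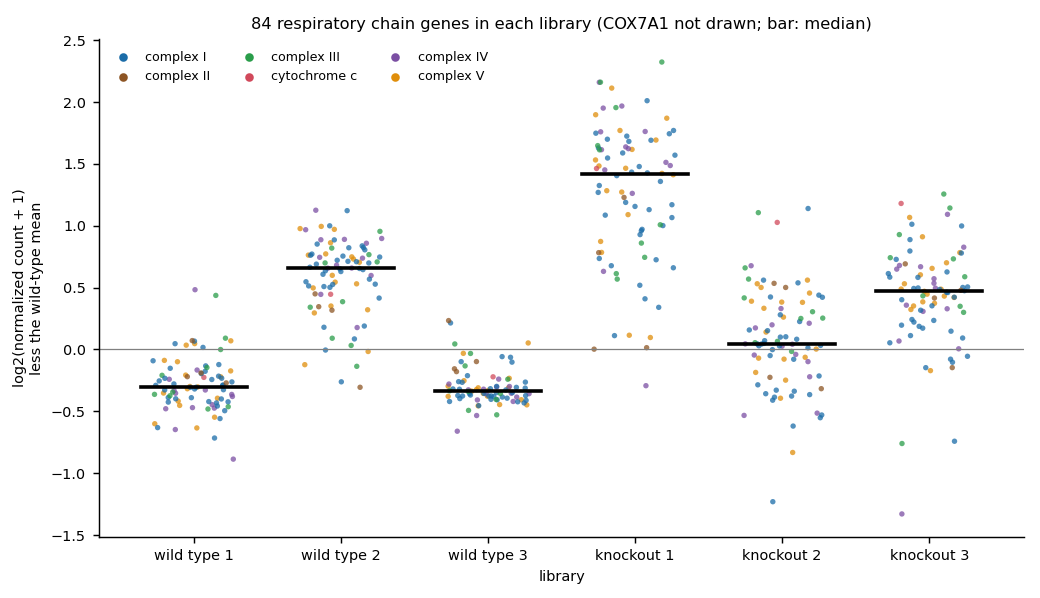
Level of each of 84 tested respiratory chain genes in the 6 libraries, as log2(normalized count + 1) less the gene's wild-type mean, coloured by complex, with a bar at each library's median. COX7A1 is not drawn because it was at 0 in every knockout library. Wild-type replicate 2 stands above the other wild-type libraries and knockout replicate 1 above the other knockout libraries.

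One library of each genotype stood apart in these genes. Wild-type replicate 2 was the highest wild-type library for 77 of the 85 tested genes, and knockout replicate 1 was the highest knockout library for 77 and the highest of all 6 libraries for 74. The 90 genes together made up 3.92%, 5.76% and 3.87% of all normalized counts in wild-type replicates 1, 2 and 3, and 7.64%, 4.58% and 5.39% in knockout replicates 1, 2 and 3. The ranges therefore overlapped, since wild-type replicate 2 lay above knockout replicates 2 and 3. Compared with the mean of the other 2 wild-type libraries, wild-type replicate 2 was higher by a median of 0.99 on the log2 scale in these genes, against -0.00 over all tested genes. The corresponding excess of knockout replicate 1 over the other knockout libraries was 1.18, against -0.01.

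The excess of both libraries was larger in short transcripts. Respiratory chain genes have short messages, with a median of 916 bases against 2876 for all tested genes. In wild-type replicate 2 the median excess was 1.06 for the 50 genes under 1000 bases, 0.78 for the 18 genes of 1000 to under 2000 bases and 0.28 for the 17 longer ones. In knockout replicate 1 it was 1.29, 1.04 and 0.37. All tested genes of the same 3 classes showed the same order, with 0.82, 0.36 and -0.23 in wild-type replicate 2 and 0.91, 0.31 and -0.23 in knockout replicate 1. The log2 fold change between genotypes moved less with length, with medians of 0.65, 0.54 and 0.47 for the respiratory chain genes and 0.15, 0.03 and -0.02 for all tested genes. Across the 85 genes, which share their libraries, Spearman's rho with length was -0.52 for the excess of wild-type replicate 2, -0.54 for that of knockout replicate 1 and -0.07 for the log2 fold change. The part of transcript length in the results was not tested beyond the fit with the length trend removed, given below.

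**Figure D2:**
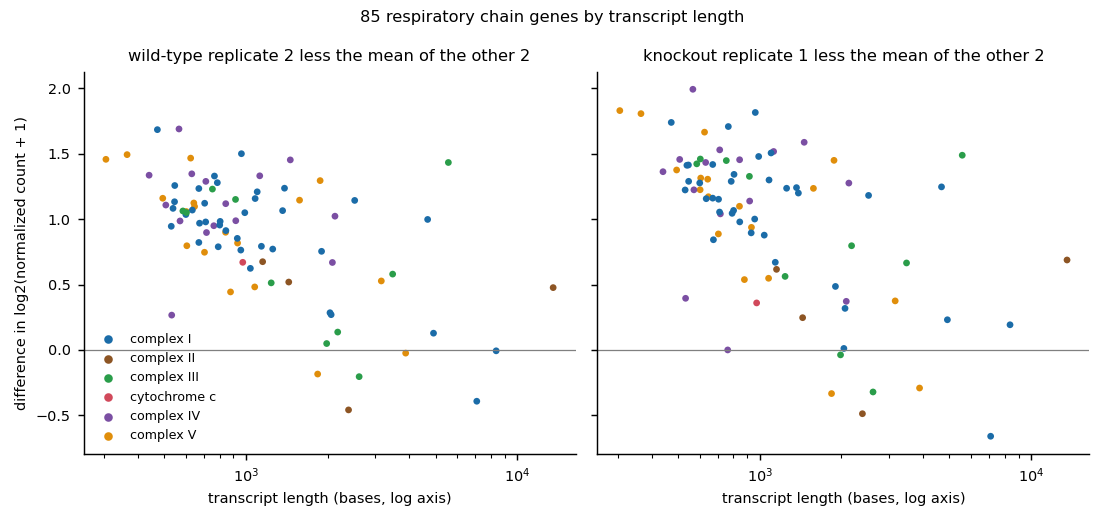
Excess of wild-type replicate 2 over the other wild-type libraries (left) and of knockout replicate 1 over the other knockout libraries (right) for 85 respiratory chain genes, as a difference in log2(normalized count + 1) on the y axis, against transcript length in bases on a log axis. Points are coloured by complex. The shortest transcripts sit highest in both panels, with medians of 1.06 and 1.29 under 1000 bases.

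The first comparison asked which respiratory chain genes differed between genotypes. Most were higher in the knockout but few passed the test: 80 of 85 had a log2 fold change above 0, with a median of 0.61 against 0.01 for all tested genes. UQCRC2 and CYCS rose and COX7A1 fell (limma, adjusted p under 0.05). The 2 higher calls are 2.35% of the 85 genes, where 5.97% of all tested genes were called higher, and the 1 lower call compares with 6.79% called lower. At an unadjusted p under 0.05 there were 17, of which 16 were higher. No share of all tested genes is given at that level. Neither this count nor those of the complexes below can therefore be read as an excess. edgeR called the same 3 genes, where it called 5.57% of all genes higher and 6.42% lower. DESeq2 called 11 of the 85 higher (12.9%) and 1 lower, against 10% and 10.7% of all genes. The 5 genes with a log2 fold change below 0 were COX7A1, COX8C, NDUFB2, SDHD and ATP5IF1.

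The 3 knockout libraries lay above the 3 wild-type libraries for 14 of the 85 genes (16.5%), and below them for 1, COX7A1. Over all tested genes these shares were 16.2% and 17.2%, so the number of separated genes was near the background. The 14 were NDUFS1, NDUFS3, NDUFV1, NDUFA6 and NDUFA9 of complex I, SDHB of complex II, UQCRC1 and UQCRC2 of complex III, CYCS, and ATP5F1A, ATP5F1B, ATP5F1C, ATP5MC1 and ATP5MC2 of complex V. In complex IV no tested gene was separated upward.

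The values depended on the libraries that stand apart. Without knockout replicate 1 alone the median log2 fold change was 0.26 and 65 of the 85 genes were above 0, and without wild-type replicate 2 alone they were 0.98 and 82. A further setting left out both wild-type replicate 2 and knockout replicate 1, which leaves 2 libraries against 2. It was chosen after the data were seen, and each of these libraries was the highest of its genotype for 77 of the 85 genes. Leaving them out narrows the spread of these genes by selection. The counts and adjusted p-values of this fit, here and below, therefore describe and do not test. In it, 54 of the 85 genes (63.5%) were called higher and 2 lower (limma), where 14.9% of all genes were called higher and 14% lower. The median log2 fold change was then 0.55, and the 54 comprised 21 of complex I, 1 of complex II, 8 of complex III, 10 of complex IV, 13 of complex V and CYCS. With each library's trend over transcript length removed, 29 (34.1%) were called higher and 1 lower (limma), against 9.85% and 9.91% of all genes, and the median was 0.48. With library totals made equal, 70 of 85 had a log2 fold change above 0, with a median of 0.33 where that of all genes was -0.27. Of the 85, CYCS alone was then called higher and COX7A1 alone lower (limma), against 3.53% and 9.38% of all genes. In bulk RNA, a change in the number of cells of a type and a change in RNA per cell cannot be told apart.

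**Figure D3:**
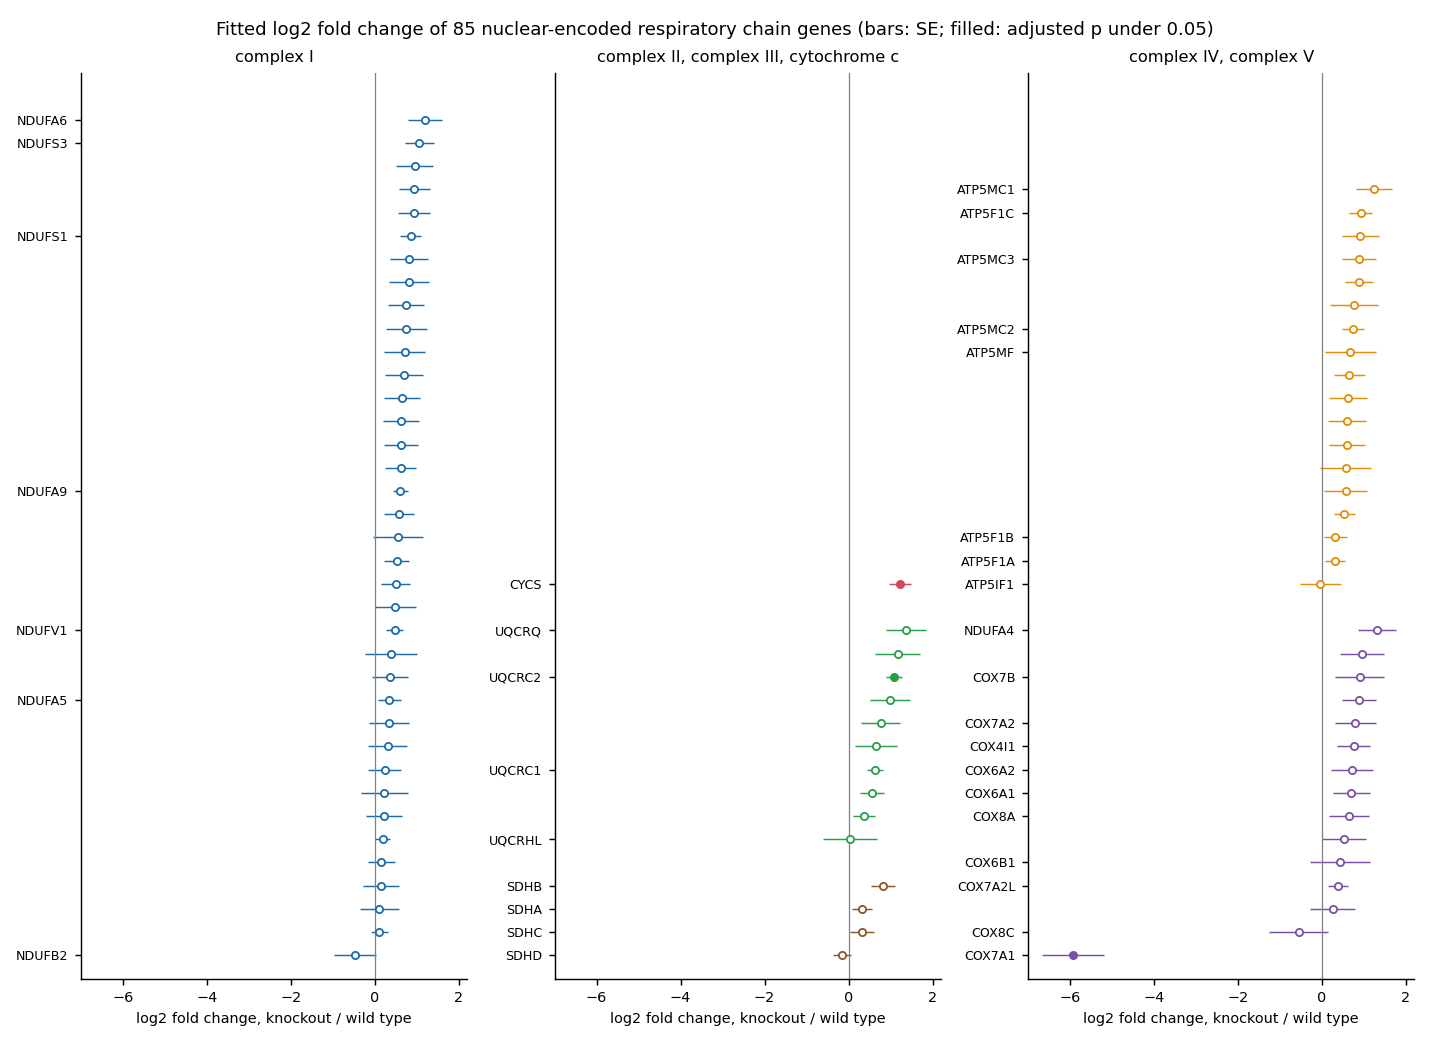
Fitted log2 fold change, knockout over wild type, of 85 respiratory chain genes ordered within complexes, with names for some of the genes, bars for the SE and filled points for an adjusted p under 0.05. The points lie mostly between 0 and 1.4, with UQCRC2 and CYCS filled on the higher side and COX7A1 far to the lower side at -5.92.

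Complex I oxidizes NADH and is built around a core that carries the flavin and iron-sulfur centres, surrounded by accessory subunits. Of its 37 nuclear genes 36 had a log2 fold change above 0, with a median of 0.54, and 0 passed limma's test (6 at an unadjusted p under 0.05, all higher, 0 by edgeR and 4 by DESeq2). The 7 nuclear core genes had a median of 0.49 and the 30 accessory genes 0.57. The highest core gene was NDUFS3 at 1.06. NDUFS1, the largest core subunit of the matrix arm, had 7350, 5936 and 8256 normalized counts in the wild type and 9451, 15679 and 14218 in the knockout (log2 fold change 0.85, SE 0.25, limma adjusted p = 0.065). Its highest wild-type library was under its lowest knockout library. Unlike most of the genes, it was lowest, within each genotype, in the library that stands apart, and without knockout replicate 1 it passed the threshold.

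NDUFA6, an accessory subunit of the LYR motif family, had the highest value in complex I. Its levels were 5993, 9797 and 5499 in the wild type and 27662, 9966 and 13843 in the knockout (log2 fold change 1.19, SE 0.40, limma adjusted p = 0.096). Knockout replicate 2 was only just above wild-type replicate 2. NDUFB2, an accessory subunit of the membrane arm, had the lowest. It had 8777, 20545 and 9003 normalized counts in the wild type and 16845, 5008 and 7028 in the knockout (log2 fold change -0.48, SE 0.50, limma adjusted p = 0.593). The genotypes overlapped widely because the library that stands apart was the highest of each. In the fit with both left out, which narrows the spread by selection, NDUFB2 was at -0.58 with a limma adjusted p of 0.029. It was the only complex I gene called lower there.

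Complex II, succinate dehydrogenase, also belongs to the citric acid cycle. None of its 4 genes passed (0 by limma, edgeR and DESeq2, 1 at an unadjusted p under 0.05), and the median of 0.33 was the lowest of the complexes. SDHB, the iron-sulfur subunit, had 7575, 12478 and 8070 in the wild type and 21425, 13237 and 14764 in the knockout (log2 fold change 0.82, SE 0.28, limma adjusted p = 0.098). Its genotypes did not overlap. SDHD, a membrane anchor, had 8611, 12483 and 8814 in the wild type and 9922, 7884 and 8872 in the knockout (log2 fold change -0.15, SE 0.22, limma adjusted p = 0.720). The flavoprotein SDHA and the other anchor SDHC had log2 fold changes of 0.33 and 0.32. Whether complex II differed from the other complexes was not tested.

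In complex III, which passes electrons from ubiquinol to cytochrome c, all 10 genes had a log2 fold change above 0, with a median of 0.71. UQCRC2, a core protein on the matrix side, was the 1 gene that rose (3 at an unadjusted p under 0.05, 1 by edgeR and 3 by DESeq2). It is on chromosome 16 from 21952660 to 21983660 (GENCODE 29, GRCh38, plus strand). It had 9886, 8443 and 9571 normalized counts in the wild type and 16845, 19978 and 22173 in the knockout, or 9300 ± 759 and 19665 ± 2678 (SD, n = 3 each). All knockout libraries were above all wild-type libraries, and wild-type replicate 2 and knockout replicate 1 were the lowest of their genotypes, the reverse of most of the genes. This is a log2 fold change of 1.07 (SE 0.19, limma adjusted p = 0.011). The call was lost on leaving out the first wild-type library (limma adjusted p = 0.061), the third (0.053) or the third knockout library (0.063), and with equal totals (0.074).

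The largest log2 fold change of all 85 genes was that of UQCRQ, a small subunit of the membrane domain. Its levels were 16766, 35504 and 17244 in the wild type and 108823, 34332 and 48024 in the knockout (log2 fold change 1.38, SE 0.47, limma adjusted p = 0.103). Knockout replicate 2 was under wild-type replicate 2, so the genotypes overlapped. UQCRC1, the partner core protein of UQCRC2, had 33039, 33806 and 32324 in the wild type and 50556, 49041 and 54916 in the knockout (log2 fold change 0.64, SE 0.19, limma adjusted p = 0.072). It varied little within either genotype. UQCRHL, a copy of the hinge protein gene UQCRH, had 8.0 to 21.6 normalized counts over the 6 libraries and a log2 fold change of 0.04.

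Cytochrome c itself rose. CYCS, on chromosome 7 from 25120091 to 25125361 (GENCODE 29, GRCh38, minus strand), had 20306, 32353 and 20370 normalized counts in the wild type and 65470, 48396 and 53818 in the knockout, or 24343 ± 6937 and 55895 ± 8725 (SD, n = 3 each). The lowest knockout library was above the highest wild-type library. This is a log2 fold change of 1.22 (SE 0.26, limma adjusted p = 0.022), with an adjusted p of 0.021 at equal totals. The call was lost on leaving out the first wild-type library (limma adjusted p = 0.12), the third (0.104) or the third knockout library (0.084).

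**Figure D4:**
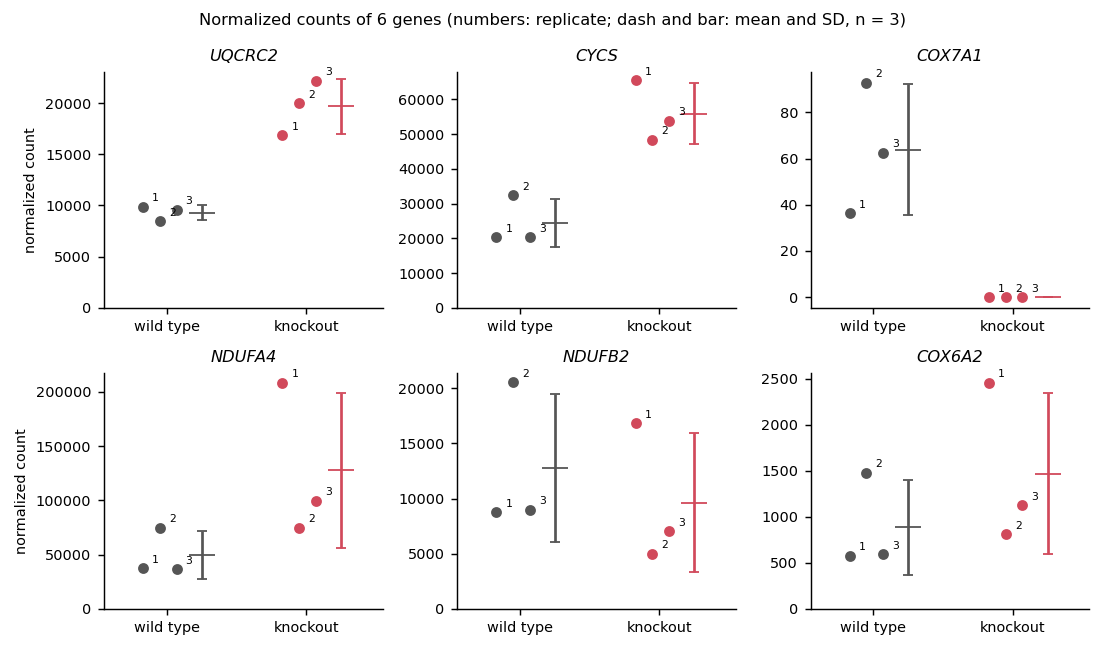
Normalized counts of 6 respiratory chain genes in the wild type and the knockout, each point a library with its replicate number and each dash and bar the mean and SD (n = 3). UQCRC2 and CYCS do not overlap between genotypes, COX7A1 is at 0 in all knockout libraries, and NDUFA4, NDUFB2 and COX6A2 overlap.

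Complex IV, cytochrome c oxidase, reduces oxygen. Of 15 tested genes 13 had a log2 fold change above 0, with a median of 0.70, and none rose by limma (2 at an unadjusted p under 0.05, 1 in each direction, 0 higher by edgeR and 1 by DESeq2). The highest was NDUFA4, first assigned to complex I and now placed in complex IV. It had 37148, 74761 and 36472 in the wild type and 208349, 74535 and 99402 in the knockout (log2 fold change 1.31, SE 0.45, limma adjusted p = 0.103). Knockout replicate 2 and wild-type replicate 2 were nearly equal. COX7A2L, which takes part in joining complexes III and IV into supercomplexes, had a log2 fold change of 0.38.

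The gene that fell was COX7A1, the heart and skeletal muscle isoform of subunit 7A, on chromosome 19 from 36150922 to 36152869 (GENCODE 29, GRCh38, minus strand). It had 36.3, 92.9 and 62.5 normalized counts in the wild type (63.9 ± 28.4, SD, n = 3), from 24, 122 and 98 reads, and 0 reads in each knockout library. With 3 reads per library as the limit that a count of 0 allows, the mean was at least 19.5-fold lower in the knockout. From the lowest wild-type library to the highest knockout limit, the difference was at least 9.51-fold. The reads are whole counts recovered from the table, and how the estimated counts of kallisto were made whole is not given in the sources used here. The limit covers counting error only, since the labels mention no molecular identifiers. The limma adjusted p was 0.0026 and was at most 0.024 in the 6 fits with a single library removed. Leaving out a knockout library could not move the log2 fold change, since every knockout value was 0. It stayed at -5.92 in each such fit, so these fits do not test its stability. Without a wild-type library it ran from -6.27 to -5.60. An exact two-sided permutation test gave p = 0.1, the smallest that 3 against 3 libraries allow. The fitted log2 fold change of -5.92 depends on the pseudocount. Of 7 other tested genes within 100 kb, 0 were called, where 12.8% of all tested genes were. With only 7 genes this count says little about the region. ZNF565 came nearest to the threshold, with a log2 fold change of 1.04 (SE 0.28, limma adjusted p = 0.051). The median over the 85 genes was the same with COX7A1 at its bound, since it stayed the lowest.

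Subunit 7A in these cells was mostly the general isoform. COX7A2 had 13961, 31884 and 15459 in the wild type and 64531, 19630 and 28277 in the knockout (log2 fold change 0.79, SE 0.49, limma adjusted p = 0.346), with overlapping genotypes. Per transcript length, COX7A1 made up 0.286%, 0.321% and 0.445% of the pair in the wild type and 0% in the knockout. Its log2 ratio to COX7A2 was -8.29 ± 0.33 in the wild type (SD, n = 3). In the knockout the ratio is set by the pseudocount, since COX7A1 was at 0, so no size is given for the difference. The exact two-sided permutation p was 0.1, or 0.30 with Benjamini-Hochberg adjustment over the 3 isoform pairs that could be compared.

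The other heart and muscle isoform, that of subunit 6A, was at a higher level. COX6A2 had 575, 1479 and 596 normalized counts in the wild type and 2460, 813 and 1125 in the knockout (log2 fold change 0.72, SE 0.50, limma adjusted p = 0.409). The general isoform COX6A1 had 33804, 68128 and 35013 in the wild type and 123276, 44492 and 62622 in the knockout (log2 fold change 0.70, SE 0.44, limma adjusted p = 0.356). Both were highest in the same libraries. Per transcript length COX6A2 made up 2.17%, 2.75% and 2.16% of the pair in the wild type and 2.53%, 2.32% and 2.28% in the knockout. The log2 ratio was -5.76 ± 0.20 and -5.74 ± 0.08 (SD, n = 3 each), a difference of 0.02 (exact two-sided permutation p = 1). Leaving out single libraries moved that difference between -0.040 and 0.14.

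The promoters of this pair differ in CG dinucleotides, which are capitalized in the 250 bases before each RefSeq start below (GRCh38.p14, 5′ to 3′ on the gene's strand). COX6A2 has 1 in this window and COX6A1 has 19. In the 300-base windows the median was 22 over the 69 matched genes and 13 over all promoters in the table, and COX6A2 was the lowest of the 69.
COX6A2 (chr16:31428361-31428610, minus strand): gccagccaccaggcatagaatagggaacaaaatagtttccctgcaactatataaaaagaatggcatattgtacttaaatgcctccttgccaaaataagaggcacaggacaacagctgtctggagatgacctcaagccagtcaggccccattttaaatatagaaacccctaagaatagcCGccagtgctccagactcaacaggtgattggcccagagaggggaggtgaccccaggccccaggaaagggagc
COX6A1 (chr12:120437863-120438112, plus strand): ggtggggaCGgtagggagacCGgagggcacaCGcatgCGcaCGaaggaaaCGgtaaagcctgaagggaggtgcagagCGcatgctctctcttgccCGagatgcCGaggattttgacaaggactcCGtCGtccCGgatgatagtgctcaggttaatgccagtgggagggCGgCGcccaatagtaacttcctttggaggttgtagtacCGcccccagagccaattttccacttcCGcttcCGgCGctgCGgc

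Other complex IV isoforms were at low levels. COX8C, the testis isoform of subunit 8, had 18.1, 14.5 and 7.7 normalized counts in the wild type and 10.2, 12.3 and 4.4 in the knockout (log2 fold change -0.56, SE 0.71, limma adjusted p = 0.677). Its ratio to the general isoform COX8A (log2 fold change 0.64, SE 0.48, limma adjusted p = 0.438) differed by -1.20 on the log2 scale (exact two-sided permutation p = 0.3, 0.45 adjusted). The testis isoform COX6B2 had 1.9 to 8.9 normalized counts, COX7B2 at most 0.6 and the hypoxia-inducible NDUFA4L2 at most 4.4, while COX4I2 had no read in any library. Their general counterparts COX4I1 and COX7B had log2 fold changes of 0.76 and 0.89. COX6B1, the general isoform of subunit 6B, was itself low, with 40.8, 168 and 64.4 normalized counts in the wild type and 261, 52.4 and 80.0 in the knockout (log2 fold change 0.43, SE 0.72, limma adjusted p = 0.761). Per kilobase of transcript its wild-type mean was 160 normalized counts, against 79804 for COX6A1, although both encode subunits of the same complex. Why COX6B1 was low was not tested.

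Complex V, ATP synthase, combines a catalytic F1 head, a rotating ring of c subunits, stalks and small membrane subunits. Of its 18 tested genes 17 had a log2 fold change above 0, with a median of 0.63, and 0 passed limma's test (4 at an unadjusted p under 0.05, 0 by edgeR and 2 by DESeq2). Medians were 0.57 for the F1 head, 0.89 for the c ring, 0.62 for the stalks and 0.61 for the membrane subunits. ATP5F1C, the gamma subunit that forms the central shaft, came nearest to the threshold. It had 27540, 36570 and 24910 in the wild type and 71277, 43185 and 55056 in the knockout (log2 fold change 0.92, SE 0.27, limma adjusted p = 0.064). Its genotypes did not overlap. The catalytic head subunits ATP5F1A and ATP5F1B were also separated but differed less, with log2 fold changes of 0.31 and 0.32. ATP5F1B had 176500, 154412 and 174392 in the wild type and 179797, 220377 and 232901 in the knockout.

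The 3 c ring genes encode the same mature protein with different targeting sequences. ATP5MC1 had 18156, 30574 and 17073 in the wild type and 91561, 30588 and 44359 in the knockout (log2 fold change 1.24, SE 0.43, limma adjusted p = 0.103). Knockout replicate 2 was only just above wild-type replicate 2, so its genotypes were barely separated. ATP5MC3 and ATP5MC2 had log2 fold changes of 0.89 and 0.73. Per kilobase of transcript, wild-type means were 65645 normalized counts for ATP5MC3, 36195 for ATP5MC1 and 607 for ATP5MC2. Whether the low values of ATP5MC2 and of COX6B1 reflect the reference used for counting was not tested, so they are not certain as levels. ATP5IF1, the inhibitor that blocks ATP hydrolysis by complex V, was lowest in the complex. It had 18029, 38383 and 16382 in the wild type and 41159, 12614 and 19953 in the knockout (log2 fold change -0.04, SE 0.49, limma adjusted p = 0.970), with wide overlap.

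Because the 85 genes varied together between libraries, each gene was also compared with the median of the set in the same library, a scaling chosen after the data were seen. On this scale 17 genes were separated upward and 10 downward, where 4.33% of all tested genes were separated upward and 21.0% downward. The median of all genes was then -0.57, so these shares describe genes relative to the set. The scaling takes out the spread that the set shares within a genotype and lowers every log2 fold change by the same amount. The contrast with all genes is therefore partly set by the scaling. The counts and adjusted p-values on this scale, here and below, describe and do not test. NDUFA4 was called higher (0.73, limma adjusted p = 0.029) and COX7A1 lower (limma adjusted p = 0.0062), against 0.760% and 3.08% of all genes. NDUFA4 stood 1.82, 1.82 and 1.82 above the set median in the wild type and 2.71, 2.46 and 2.48 above it in the knockout, so its spread within genotypes was much smaller than on the deposited scale. UQCRQ stood at 0.67, 0.75 and 0.74 in the wild type and 1.78, 1.34 and 1.43 in the knockout (limma adjusted p = 0.063). UQCRC2 and CYCS, called higher on the deposited scale, were not called on this one. UQCRC2 was at -0.09, -1.32 and -0.11 in the wild type and -0.91, 0.56 and 0.32 in the knockout. Its genotypes therefore overlapped (limma adjusted p = 0.601). CYCS was separated upward, with a log2 fold change of 0.65 (limma adjusted p = 0.210).

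Other genes stood lower relative to the set in the knockout. NDUFB2 was at -0.27, -0.04 and -0.20 in the wild type and -0.91, -1.44 and -1.34 in the knockout (limma adjusted p = 0.079). ATP5IF1 was at 0.77, 0.86 and 0.66 in the wild type and 0.37, -0.11 and 0.17 in the knockout. SDHD was at -0.29, -0.76 and -0.23 in the wild type and -1.68, -0.78 and -1.0 in the knockout. For each of these 3 the genotypes did not overlap on this scale, though SDHD in knockout replicate 2 was close to wild-type replicate 2.

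The log2 fold changes of the 5 genes on chromosome 7 were ordered by position, a pattern chosen after values were seen. In order along the chromosome the log2 fold changes were 1.31 for NDUFA4, 1.22 for CYCS, 0.68 for ATP5MF, 0.34 for NDUFA5 and -0.48 for NDUFB2. The other tested genes in the same 20 Mb bins had medians of 0.62 (90 genes), 0.32 (85), 0.07 (79), -0.20 (94) and -1.05 (94), in the same order. In the last bin 12.8% of the other genes had a log2 fold change above 0. The highest complex IV gene, the electron carrier and the lowest complex I gene therefore lie in stretches whose other genes lean the same way, and the part of chromosome position in their values was not tested.

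The next comparison set the nuclear genes beside the 13 subunits encoded by mitochondrial DNA. These 13 had a median log2 fold change of -0.15, from MT-CYB at -0.75 to MT-ND3 at 0.42, with 4 above 0 and 0 called (0 by limma, edgeR and DESeq2, 0 at an unadjusted p under 0.05). With wild-type replicate 2 and knockout replicate 1 both left out, the median was -0.33 and 3 of the 13 were called lower (limma): MT-ND5, MT-ND6 and MT-CYB, with adjusted p-values of 0.0052, 0.0018 and 0.0044. These 2 libraries were the highest of their genotypes for all 13, as for most nuclear genes. Leaving them out therefore narrows the spread by selection here too, and the 3 calls describe and do not test. Within each library, the median log2 level of the nuclear genes less that of the mitochondrial genes was -2.31, -2.22 and -2.36 in the wild type and -1.84, -1.61 and -1.67 in the knockout. The genotypes did not overlap, and the means differed by 0.59.

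Within complexes I, III and IV, the nuclear genes stood closer to the mitochondrial ones in the knockout. In complex I the difference of medians was -1.60, -2.07 and -1.42 in the wild type and -1.41, -0.49 and -0.69 in the knockout. In complex III, whose only mitochondrial gene is MT-CYB, it was -3.04, -2.45 and -2.92 against -1.54, -1.27 and -1.30. In complex IV it was -2.87, -2.64 and -2.65 against -1.68, -1.94 and -1.88. These 3 complexes did not overlap between genotypes, with mean differences of 0.83, 1.43 and 0.89, while complex V overlapped with 0.43. In complex I the separation was nearly a tie, with knockout replicate 1 at -1.41 and wild-type replicate 3 at -1.42. The values describe relative RNA levels, with no test, and say nothing of protein.

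**Figure D5:**
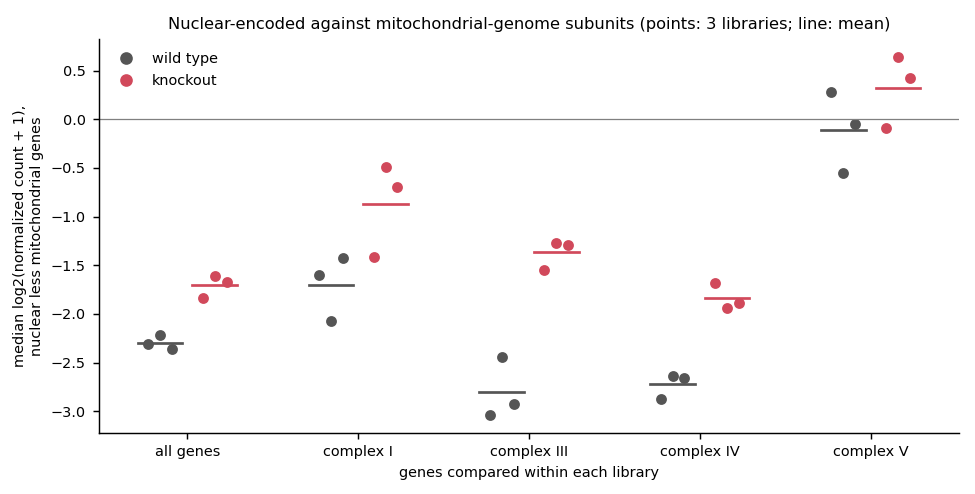
Median log2(normalized count + 1) of nuclear-encoded less mitochondrial-genome subunits within each library, for all genes and for complexes I, III, IV and V, with a point per library and a line at the mean. Knockout points lie above wild-type points in each group except complex V, where they overlap, and in complex I the lowest knockout point is only just above.

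Other genes of the pathway were taken from fixed lists. Assembly factors, which build the complexes without remaining in them, had 39 of 56 genes above 0 and a median of 0.16, against 0.01 for all tested genes. With equal totals these medians were -0.12 and -0.27. Of the 56, 2 rose and 1 fell by limma, where 5.97% of all tested genes were called higher and 6.79% lower. NDUFAF5, a complex I assembly factor, had a log2 fold change of 0.90 (SE 0.21, limma adjusted p = 0.031), and COX19, a copper-related factor for complex IV, had 1.38 (SE 0.28, limma adjusted p = 0.017). BCS1L, which inserts the iron-sulfur protein into complex III, had -0.73 (SE 0.18, limma adjusted p = 0.032), the reverse of UQCRC2 in the same complex. It had 2525, 2200 and 2441 normalized counts in the wild type and 1351, 1440 and 1512 in the knockout.

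Of 19 regulators of mitochondrial genes 13 had a log2 fold change above 0 and 0 were called (0 by limma and edgeR, 2 by DESeq2, 3 at an unadjusted p under 0.05). PPARGC1A, a coactivator of mitochondrial biogenesis, had 0.42 (limma adjusted p = 0.417), the nuclear receptor ESRRA 0.49 (limma adjusted p = 0.170), NRF1 0.15 (limma adjusted p = 0.838) and the mitochondrial DNA factor TFAM 0.20 (limma adjusted p = 0.657). Citric acid cycle genes had 12 of 14 above 0 and a median of 0.40, or 0.12 with equal totals. By limma 1 rose and 1 fell, where 5.97% of all tested genes were called higher and 6.79% lower. IDH3A, a subunit of the NAD-dependent isocitrate dehydrogenase, rose by 1.33 (SE 0.33, limma adjusted p = 0.039) and SUCLG2, a subunit of succinyl-CoA synthetase, fell by 1.22 (SE 0.29, limma adjusted p = 0.030).

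Mitochondrial import and membrane carriers had 15 of 16 tested genes above 0, with a median of 0.52, and 4 rose, where 5.97% of all tested genes were called higher. With equal totals the median was 0.24, against -0.27 for all tested genes. SLC25A4, the ADP/ATP carrier that exports the product of complex V, had 51009, 59497 and 48001 normalized counts in the wild type and 153030, 109479 and 128422 in the knockout (log2 fold change 1.29, SE 0.24, limma adjusted p = 0.014). The inner-membrane translocase genes TIMM17A, TIMM50 and TIMM44 had 1.04, 0.87 and 0.82 (limma adjusted p = 0.019, 0.032 and 0.029).

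Markers of other cell types also differed between the genotypes. Over all tested genes, 5.97% were called higher and 6.79% lower. Of 5 smooth muscle markers 4 rose, and the sum of the 5 was 82158 to 94153 normalized counts in the wild type and 490518 to 539769 in the knockout. The sum was mostly ACTA2, with means of 49466 and 389103. The other marker, MYOCD, went the other way (log2 fold change -0.63, limma adjusted p = 0.107). Epicardial markers summed to 103 to 219 and 912 to 1091 (2 of 5 rose), pluripotency markers to 905 to 979 and 3080 to 4462 (1 of 4 tested rose), and neural markers to 4553 to 7862 and 7072 to 16891 (3 of 5 rose). The pluripotency sum was mostly TDGF1, the gene that rose, and the neural sum mostly NES, which did not pass (log2 fold change 0.64, limma adjusted p = 0.340). Fibroblast markers summed to 12893 to 26523 and 7662 to 16208 (2 of 7 rose and 1 fell), endothelial markers to 139 to 466 and 367 to 545 (0 of 3 called by limma, edgeR and DESeq2, 0 at an unadjusted p under 0.05) and endoderm markers to 1662 to 3009 and 1205 to 1246 (1 of 3 fell). The endothelial markers CDH5 and TIE1 were at or near 0 and VWF was at 0 in all but 1 library, while the endoderm marker FOXA2 was at 0 throughout. Of the 9 cardiomyocyte markers 0 rose and 1 fell, with 5 above 0, a median of 0.32 and 6 at an unadjusted p under 0.05. The part of these differences in the respiratory chain values was not tested.

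Some values may share reads with other genes, which was not measured. Of 151 pseudogene rows of these families 4 had a mean of at least 10, and the largest, UQCRFS1P1, was at 5.57% of UQCRFS1. Overlapping gene records on the same strand were at 17.5% of NDUFS3, 15.3% of NDUFA9 and 13.7% of NDUFC2, so those 3 levels are less certain. For genes at low levels the overlapping gene was the larger one: UNC79 was at 621% of COX8C, whose level and ratio to COX8A are therefore uncertain, and CYB5R3 was far above ATP5MGL, which was not tested.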

How the data were processed

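The deposited table gives 1 value per gene symbol in each of 6 libraries. Per the labels' protocols, total RNA was column-purified with DNase digestion and made into libraries with the Clontech Ultra Low v4 and NexteraXT kits. Per the submitters' processing notes, bcl2fastq 2.19, kallisto 0.44.0, DESeq2 1.28.1 and GRCh38 were used, and use of strand is not given in the sources used here. The deposited values are a normalized count signal: 100% were whole multiples (tolerance 0.001) of 1 step per library, which recovers whole counts, called reads here although how kallisto's estimated counts were made whole is not given, and 0 columns were left unused.

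Genes with a mean of at least 10 (15536 of 35793) were tested with limma 3.58.1 (R 4.3.3) on log2(value + 1), with a trended prior, and adjusted by Benjamini-Hochberg over all of them, with a threshold of 0.05. SEs are limma's moderated SEs. Alternatives were count tests of those reads (DESeq2 1.42.0, edgeR 4.0.16), other pseudocounts, filters and scalings, a replicate block, removal of each library's transcript-length trend by loess, and leaving out libraries. The fits were also run on simulated data in which genes varied independently. No shift shared by the genes of a library was simulated, so the libraries that stand apart are not covered by it. Positions and lengths (median of principal transcripts) came from GENCODE 29, with a length for 97.5% of tested genes, and promoters from RefSeq (GRCh38.p14). Plots used matplotlib 3.10.9 in Python 3.11.15.

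The members and lists were chosen with earlier results of these data known. Named are members and list genes with an adjusted p under 0.05, isoform pairs, the highest and lowest member of each complex, the member nearest above the threshold and 4 regulators. Other members given by value (NDUFS1, NDUFS3, SDHA, SDHC, UQCRC1, COX7A2L, ATP5F1A, ATP5F1B, ATP5MC2, ATP5MC3, NDUFA5 and ATP5MF) were chosen after their values were seen. The values of 1 further gene are not reported here.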

Additional observations from a re-analysis of the deposited data

How the results depend on the processing

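The number of tested genes called was 1982, and of the 85 respiratory chain genes 3. These became 3210 and 12 with DESeq2, 2991 and 30 with the length trend removed, 798 and 1 with the replicate block, and 4483 and 56 with wild-type replicate 2 and knockout replicate 1 both left out. With subunit medians made equal, 596 genes and 2 members were called. The cause of these shifts was not tested. Leaving out 1 library gave 796 to 2181 genes and 1 to 4 members, with COX7A1 the 1 member called when wild-type library 1 or 3 or knockout library 3 was removed. The median log2 fold change of the members lay between 0.26 and 0.98 with single libraries removed and kept its sign under all other settings run, at 0.04 with subunit medians made equal, which sets it near 0 by construction. The COX6A ratio difference of 0.02 ran from -0.040 to 0.14 with single libraries removed, and that of COX8 from -1.80 to -0.77. That of COX7A ran from -7.09 to -6.23 at a pseudocount of 1, but its size is set by the pseudocount, at -10.0 with 0.1 and -3.60 with 10. The sign for COX6A turned without the first wild-type library (-0.0396), wild-type library 3 (-0.0400) or the first knockout library (-0.0277). A filter at a mean of 50 left COX7A1 untested. The replicate numbers share only a number, with correlations of deviations between same-numbered libraries of -0.23, -0.40 and 0.17. With the replicate block UQCRC2 and CYCS had limma adjusted p-values of 0.098 and 0.125, and COX7A1 0.019. Depth limits COX7A1, which rests on 24 to 122 reads per wild-type library.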
